A study of Homo sapiens with 6 samples.

Results

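The genes examined here are 30 enzymes and regulators of cholesterol and fatty acid synthesis, taken by their gene symbols from the RNA-seq tables as a fixed list of sterol and fatty acid genes that the SREBP transcription factors are known to drive. All 30 were found among the 60662 genes listed. They comprise 7 genes of the mevalonate arm, 11 of the squalene and sterol arm, 4 regulators and transfer proteins, and 8 of the fatty acid arm. RNA-seq was performed in HCT116 cells, an established human colorectal carcinoma (CRC) line grown in McCoy's 5a medium with 10% fetal bovine serum. The control group (shCtrl) carried a nontarget shRNA and the knockdown group (GMDS-AS1 KD) carried GMDS-AS1 shRNA 2, both stably introduced with a lentivirus, and GMDS-AS1 is a long non-coding RNA. Each group had 3 libraries, numbered as biological replicates 1 to 3. A single shRNA was sequenced, and no source used here says whether the 3 libraries of a group came from separate transductions or cultures, so the p-values measure the spread between these libraries, which may be technical.

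Cells build cholesterol from acetyl-CoA through mevalonate, farnesyl diphosphate, squalene and a chain of sterol intermediates, and they build fatty acids from the same acetyl-CoA through malonyl-CoA. Both routes are controlled by SREBP-1 and SREBP-2, membrane-bound precursors in the endoplasmic reticulum that the escort protein SCAP carries to the Golgi for cleavage when sterols are scarce, while INSIG proteins hold the complex back when sterols are plentiful. The freed SREBP fragments act in the nucleus together with factors such as NF-Y and SP1, and many tumour cells, CRC cells included, rely on this synthesis for membranes.

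Values are given as deposited in TPM, a level scaled for transcript length and library total, with the 3 shCtrl libraries first and the 3 GMDS-AS1 KD libraries second, each in replicate order. A log2 fold change is GMDS-AS1 KD minus shCtrl on log2(TPM + 1), fitted with limma after scaling the libraries by a trimmed mean, and a gene was said to rise or fall when its Benjamini-Hochberg adjusted p over the 16901 genes tested was under 0.05. On the log2(TPM + 1) scale the change of genes with few TPM is understated. The factors that divided TPM differed between the groups, by a log2 value of -0.25 in KD against shCtrl, so that the median log2 fold change of all genes was -0.20 with TPM as deposited and -0.002 after scaling. Results that differ between the 2 scales are therefore given on both. In bulk RNA, a smaller number of expressing cells and less RNA per cell cannot be told apart.

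GMDS-AS1 itself, listed under the symbol GMDS-DT, was low in every library. It stood at 1.66, 2.21 and 1.34 TPM in shCtrl and at 0.88, 0.91 and 0.79 TPM in GMDS-AS1 KD, with no overlap between the groups. It fell by 0.41 on the log2 scale after scaling (limma adjusted p = 0.0407). As deposited the log2 fold change was -0.545 (limma adjusted p = 0.0147), and the KD mean was 0.495 of the shCtrl mean. The call after scaling was lost when any library other than shCtrl replicate 3 was left out, with limma adjusted p from 0.0714 to 0.117. Without shCtrl replicate 2 the log2 fold change was as small as -0.30. The epithelial markers EPCAM, KRT8, KRT18, KRT19, CDH1 and CDX2 were all detected, whereas VIL1 did not exceed 0.41 TPM. Of the markers of other cells, the leukocyte gene PTPRC was listed at 0 in every library, PECAM1 and ALB did not exceed 1.16 TPM, and COL1A1 lay between 10.04 and 14.42 TPM. The keratins KRT8 and KRT18 fell by 1.46 and 1.83 on the log2 scale, and their part in the results was not tested. Across genes, which do not count as independent replicates, Pearson's r of log2(TPM + 1) was 0.985 to 0.987 within groups and 0.956 to 0.958 between them.

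GMDS-AS1 KD cells held more RNA of most of the 30 synthesis genes. After scaling, 25 of the 30 rose, TM7SF2 and SCD fell, and LSS, ELOVL6 and FADS2 did not pass the test. Those 25 are 83.3% of the members, where 28.5% of all genes tested rose. The 2 that fell are 6.67%, where 25.9% of all genes fell. The members were chosen with earlier results of these data known, so these shares are descriptions only. Rises of at least 2-fold were found for MVK, INSIG1, MVD, FASN and FDFT1, against 2.93% of all genes. Falls of at least 2-fold, which 4.24% of all genes showed, included neither TM7SF2 nor SCD. The median log2 fold change of the members was 0.49.

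With TPM as deposited, fewer of the members passed the test. There 17 members were called higher, where 16.3% of all genes were, and 5 members were called lower, where 40.3% of all genes were. The 5 were TM7SF2, SCD, LSS, ACLY and FADS2. The 3 KD libraries lay above the 3 shCtrl libraries without overlap for 18 members, against 18.8% of all genes, and below them for 5 members, against 44.9% of all genes. The median log2 fold change of the members was 0.25 on this scale, where that of all genes was -0.195. Only MVK and INSIG1 passed 2-fold, where 225 of the 16901 genes tested were called at least 2-fold higher.

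**Figure D1:**
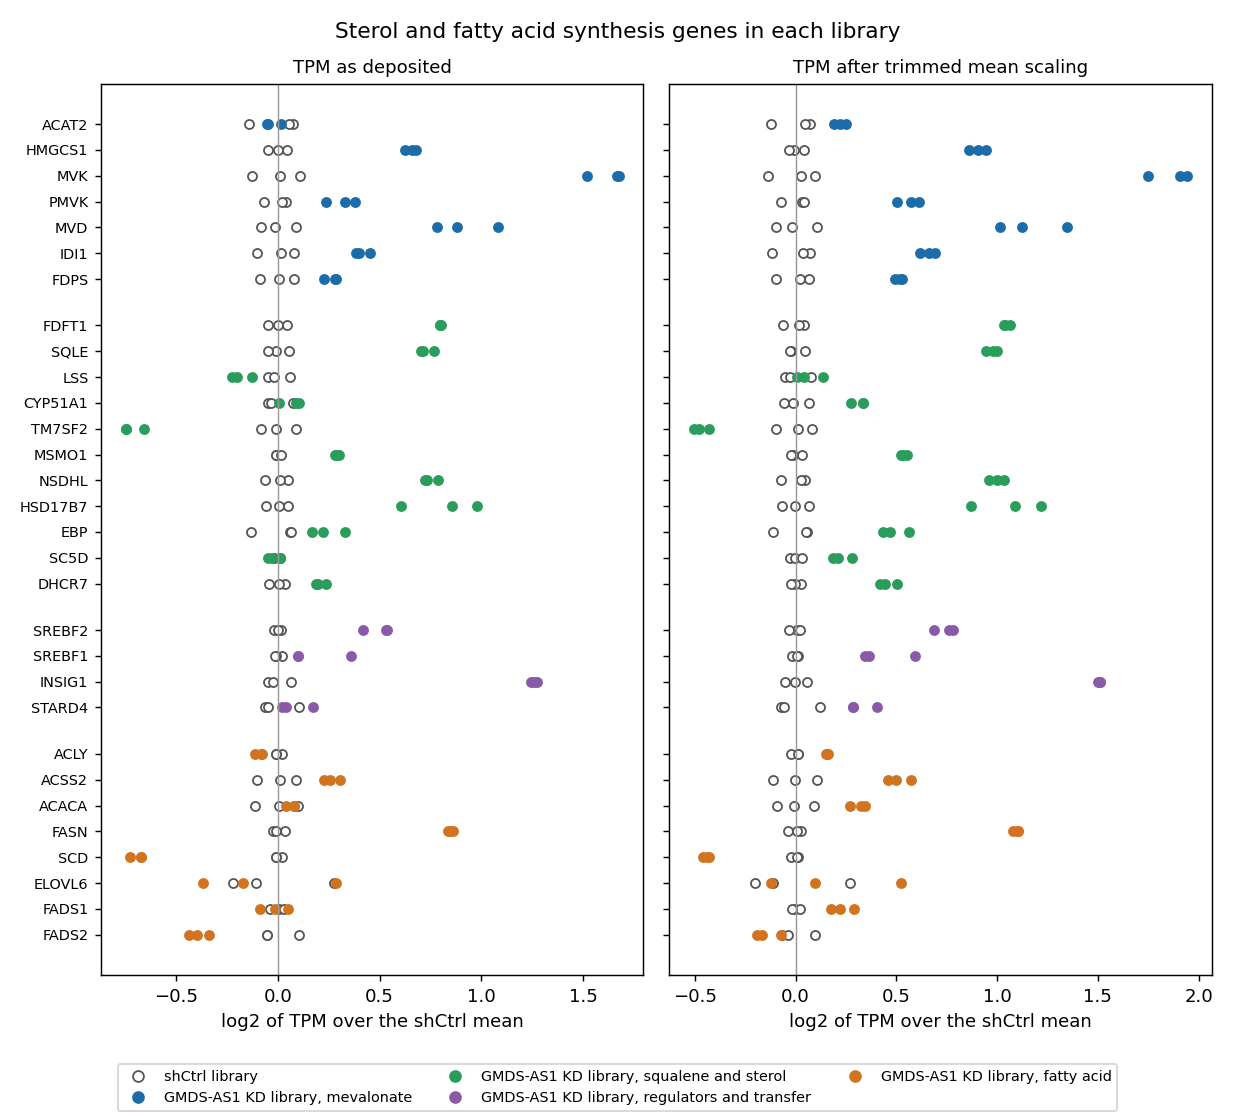
Level of each of the 30 synthesis genes in each library, as log2 of TPM over the mean of the shCtrl libraries, with TPM as deposited on the left and after trimmed mean scaling on the right. Open circles are the 3 shCtrl libraries and filled circles the 3 GMDS-AS1 KD libraries, coloured by arm. In the left panel the KD libraries lie above all shCtrl libraries for 18 genes and below them for 5.

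The sequence in front of the start sites was examined as a planned description. RefSeq promoter windows of GRCh38.p14, from 250 bases before to 50 bases after a start, were found for 26 of the 30 members, all except ACAT2, FDFT1, SQLE and FASN. The letters CCAAT, to which NF-Y binds, were searched on both strands and stood in at least 1 window of 21 of the 26 (80.8%), where 39.7% of 27305 genes with windows held them. On the reverse strand the same letters read ATTGG. The sterol regulatory element, searched as TCACNCCAC on both strands, was matched exactly in SREBF2 only (3.85% of the members with a window and 1.39% of all genes), and with 1 mismatch allowed in 14 members (53.8% against 28.2% of all genes). The E-box CACGTG was found in INSIG1, SC5D and LSS (11.5% against 8.77%). In IDI1 and in NSDHL a forward and a reverse CCAAT share letters, and no matches overlap in the stretches printed here. The members with CCAAT had a median log2 fold change of 0.50, ranging from -0.45 to 1.74, and the 5 without had 0.31, ranging from 0.17 to 0.55. For the sterol regulatory element with 1 mismatch allowed, the medians were 0.505 with and 0.372 without. For the E-box the order was the opposite, with 0.214 with and 0.479 without. These matches are descriptions of letters and not binding sites. The members were listed as genes driven by SREBP, which acts with NF-Y, and a link between the letters and the changes was not tested.

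The stretches that hold the matches are shown for MVK and INSIG1, which had the greatest rises, for HMGCS1 at the entry of the mevalonate arm, for SREBF2 with its sterol regulatory element, and for both genes that fell. Each is written 5′ to 3′ on the strand of its gene, with the matched letters in capitals. The stretch of MVK at chr12:109573572-109573764 (plus strand) runs from 222 to 30 bases before the start and holds 5 CCAAT letters. That of INSIG1 at chr7:155297696-155297840 (plus strand) runs from 182 to 38 bases before the start and holds 1 CCAAT and 1 E-box. That of HMGCS1 at chr5:43313496-43313579 (minus strand) lies 167 to 84 bases before the start and holds 2. That of SREBF2 at chr22:41832960-41833015 (plus strand) lies 145 to 90 bases before the start and holds the sterol regulatory element beside 1 CCAAT. SCD, which fell, held 2 CCAAT at chr10:100346992-100347063 (plus strand), 241 to 170 bases before the start. TM7SF2, which fell as well, held 1 at chr11:65111786-65111814 (plus strand), 86 to 58 bases before the start. In the GENCODE v29 annotation, which also lists longer transcripts, the outermost start of MVK lies upstream of its printed stretch and those of INSIG1 and HMGCS1 lie within theirs.
MVK: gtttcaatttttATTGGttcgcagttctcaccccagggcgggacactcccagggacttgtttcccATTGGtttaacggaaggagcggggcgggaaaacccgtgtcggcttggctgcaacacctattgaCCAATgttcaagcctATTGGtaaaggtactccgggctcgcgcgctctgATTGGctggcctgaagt
INSIG1: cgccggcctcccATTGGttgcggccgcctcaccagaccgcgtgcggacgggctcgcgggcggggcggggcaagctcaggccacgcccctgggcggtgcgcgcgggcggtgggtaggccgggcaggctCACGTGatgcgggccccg
HMGCS1: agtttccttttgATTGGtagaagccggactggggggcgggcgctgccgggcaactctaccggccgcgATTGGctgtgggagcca
SREBF2: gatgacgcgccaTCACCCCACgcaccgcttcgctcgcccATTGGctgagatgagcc
SCD: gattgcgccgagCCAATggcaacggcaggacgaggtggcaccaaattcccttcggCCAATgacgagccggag
TM7SF2: ccccgagcgccgATTGGctggtgtgctgg

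All 7 genes of the mevalonate arm rose, with a median log2 fold change of 0.65 (0.41 with TPM as deposited). The arm starts with the joining of acetyl-CoA units by ACAT2 and HMGCS1. The members do not cover every step from there to mevalonate. The later members carry out 2 phosphorylations (MVK and PMVK), a decarboxylation (MVD), an isomerization (IDI1) and a chain extension to farnesyl diphosphate (FDPS). Its summed level was 462 ± 7.82 TPM in shCtrl and 643 ± 8.77 TPM in GMDS-AS1 KD (SD, n = 3 each), a ratio of 1.39 with TPM as deposited and 1.65 after scaling.

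MVK, the kinase that phosphorylates mevalonate (ENSG00000110921, chr12:109573255-109598117), had the greatest rise of all 30 members. The libraries held 7.27, 8.58 and 8 TPM in shCtrl and 25.25, 25.40 and 22.77 TPM in GMDS-AS1 KD. Every KD library held more than any shCtrl library. Its mean was 3.08 times the shCtrl mean as deposited, and the log2 fold change was 1.74 ± 0.0793 (SE, limma adjusted p = 5.44e-06). MVD, the decarboxylase 2 steps further on (ENSG00000167508, chr16:88651935-88663161), was listed at 64.06, 61.00 and 68.80 TPM and then at 119.18, 136.75 and 111.22 TPM. Its KD libraries were spread more widely than those of MVK relative to their mean, with an SD of 13.1 TPM, but stayed apart from shCtrl. The log2 fold change of MVD was 1.15 ± 0.0908 (SE, limma adjusted p = 6.07e-05). HMGCS1, the cytosolic synthase that makes HMG-CoA (ENSG00000112972, chr5:43289395-43313512), moved from 74.28, 72.01 and 69.56 TPM to 113.72, 115.18 and 111.10 TPM. That was a log2 fold change of 0.89 ± 0.0354 (SE, limma adjusted p = 3.08e-06), and the groups lay far apart relative to their SD of 2.36 and 2.07 TPM.

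The other 4 genes of the arm rose less. IDI1, which isomerizes isopentenyl diphosphate, was listed at 53.09, 46.72 and 50.82 TPM in shCtrl and at 68.65, 66.10 and 65.51 TPM in KD, a log2 fold change of 0.65 (limma adjusted p = 8.45e-05). PMVK, the second kinase, went from 32.93, 35.52 and 35.02 TPM to 43.35, 40.60 and 44.92 TPM (0.55, limma adjusted p = 0.000108). FDPS, already the second most abundant member in shCtrl, went from 191.37, 215.10 and 204.55 TPM to 247.90, 238.01 and 248.42 TPM (0.51, limma adjusted p = 9.08e-05). In none of these 3 did the groups overlap. ACAT2, the cytosolic thiolase, differed from the rest of the arm. It was listed at 30.69, 30.27 and 26.42 TPM in shCtrl and 28.08, 28.20 and 29.48 TPM in KD, so the groups overlapped and the log2 fold change was -0.02 as deposited (limma adjusted p = 0.779). Only after scaling did it rise, by 0.22 (limma adjusted p = 0.0184), and its call was lost without shCtrl replicate 3 (0.14, adjusted p = 0.0535) and without GMDS-AS1 KD replicate 3 (0.21, adjusted p = 0.0507).

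The squalene and sterol arm was more divided. Of its 11 genes 9 rose, TM7SF2 fell and LSS did not pass the test, with a median log2 fold change of 0.48 (0.24 as deposited, where 7 were called higher and 2 lower). Its summed level was 516 ± 12.2 TPM in shCtrl and 670 ± 6.29 TPM in KD (SD, n = 3 each), a ratio of 1.299 as deposited and 1.54 after scaling. FDFT1, squalene synthase and the first enzyme committed to sterols (ENSG00000079459), showed the greatest rise of the arm. Its level was 137.44, 128.51 and 133.08 TPM in shCtrl and 231.07, 230.90 and 232.07 TPM in KD. Its 3 KD libraries differed by an SD of only 0.632 TPM, and the log2 fold change was 1.04 ± 0.0328 (SE, limma adjusted p = 1.44e-06). SQLE, squalene epoxidase, which makes the first oxygenated intermediate, went from 38.65, 36.98 and 36.05 TPM to 60.63, 61.11 and 63.37 TPM (0.96, limma adjusted p = 2.83e-06).

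LSS, the cyclase that turns the epoxide into lanosterol, stood between these enzymes and the later steps and did not move with them. It was listed at 36.45, 37.19 and 39.24 TPM in shCtrl and at 32.76, 34.41 and 32.16 TPM in KD. As deposited, its KD libraries all lay below its shCtrl libraries (log2 fold change -0.18, limma adjusted p = 0.0156), whereas after scaling the difference was 0.06 with a 95% interval from -0.07 to 0.19 (limma adjusted p = 0.373). Within a library, where scaling cancels, FDFT1 was 3.77, 3.46 and 3.39 times as abundant as LSS in shCtrl and 7.05, 6.71 and 7.22 times in KD. This and the other pairs of genes compared within libraries were chosen after their values were seen, and no test was made on them.

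The demethylation and reduction steps that follow lanosterol went different ways. CYP51A1, the lanosterol 14-demethylase, was listed at 64.56, 59.34 and 59.95 TPM in shCtrl and at 65.26, 61.62 and 65.76 TPM in KD. Its groups overlapped as deposited (log2 fold change 0.07, limma adjusted p = 0.263), and it rose by 0.31 after scaling (limma adjusted p = 0.000852). TM7SF2, a sterol 14-reductase (ENSG00000149809, chr11:65111845-65116384), had the lowest log2 fold change of the 30 members. Its level was 40.75, 36.14 and 38.12 TPM in shCtrl and 22.83, 22.83 and 24.27 TPM in KD. Every KD library lay well below every shCtrl library, at 0.608 of the shCtrl mean as deposited, and it fell by 0.45 on the log2 scale after scaling (SE 0.0549, limma adjusted p = 0.000475). LBR, which also holds sterol 14-reductase activity and is not among the 30, was listed at 37.77, 39.50 and 38.39 TPM in shCtrl and 39.02, 38.57 and 41.62 TPM in KD, a log2 fold change of 0.28 after scaling and 0.04 as deposited (limma adjusted p = 0.453). LBR was singled out after its values were seen.

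NSDHL and HSD17B7, the dehydrogenase and the reductase that act in turn to remove the methyl groups at carbon 4, both rose by close to 2-fold after scaling. As deposited, their KD means were 1.68 and 1.77 times the shCtrl means. NSDHL was listed at 14.29, 13.19 and 13.86 TPM in shCtrl and at 23.81, 22.94 and 22.79 TPM in KD (log2 fold change 0.94, limma adjusted p = 1.23e-05). HSD17B7 went from 11.94, 11.44 and 12.32 TPM to 23.43, 18.08 and 21.57 TPM (0.997 ± 0.0918 SE, limma adjusted p = 0.000128). HSD17B7P2, a pseudogene copy, was listed at a mean of 1.61 TPM in shCtrl and 2.47 TPM in KD, or 12.4% of the level of HSD17B7, so some of the reads of HSD17B7 may be shared with it. MSMO1, the oxidase that starts each round of this removal, went from 47.46, 47.37 and 48.22 TPM to 57.92, 58.16 and 58.66 TPM (0.53, limma adjusted p = 2.04e-05). Its libraries were among the tightest, with an SD of 0.467 TPM in shCtrl and 0.378 TPM in KD.

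The last steps of the arm rose modestly. EBP, the sterol isomerase, was listed at 43.89, 43.95 and 38.42 TPM in shCtrl and at 49.11, 47.23 and 52.87 TPM in KD (log2 fold change 0.48, limma adjusted p = 0.000531). DHCR7, the reductase that completes cholesterol from its 7-dehydro form, went from 75.87, 74.47 and 71.95 TPM to 85.00, 87.24 and 84.35 TPM (0.45, limma adjusted p = 5.19e-05). For both the groups did not overlap, and both calls held on the deposited scale. SC5D, the desaturase that acts just before DHCR7, was nearly level as deposited, at 18.73, 19.11 and 19.15 TPM in shCtrl and 18.60, 19.17 and 18.38 TPM in KD (-0.02, limma adjusted p = 0.724). After scaling SC5D rose by 0.21 (limma adjusted p = 0.00822).

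**Figure D2:**
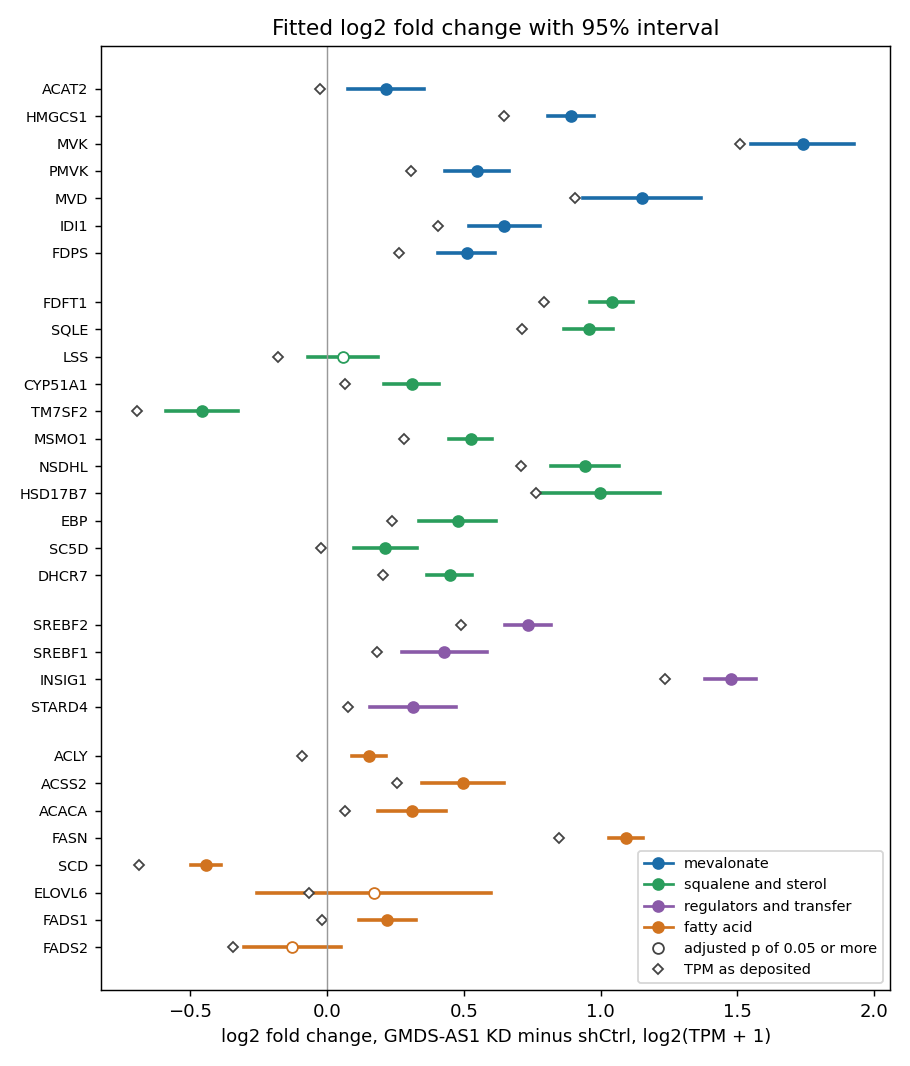
Fitted log2 fold change of each member, GMDS-AS1 KD minus shCtrl on log2(TPM + 1) after trimmed mean scaling, with its 95% interval from 3 libraries a group. Filled circles passed the test, open circles did not, and diamonds give the value with TPM as deposited. The diamonds of ACAT2, LSS, SC5D, ACLY, ELOVL6 and FADS1 lie on the other side of 0 from their circles.

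The 4 regulators and transfer proteins all rose after scaling, and SREBF2 and INSIG1 did so on both scales. INSIG1, which retains the SCAP and SREBP complex in the endoplasmic reticulum and is itself an SREBP target (ENSG00000186480, chr7:155297776-155310235), was listed at 28.73, 31.08 and 29.21 TPM in shCtrl. It stood at 71.06, 70.35 and 71.87 TPM in KD, 2.40 times the shCtrl mean as deposited. The log2 fold change was 1.48 ± 0.0385 (SE, limma adjusted p = 7.96e-07), the second greatest of the 30, and INSIG1 went from rank 21 to rank 11 in mean TPM among them. INSIG2, its paralog, is not among the 30 and did not pass the test. It was listed at 13.66, 13.17 and 10.38 TPM in shCtrl and at 10.47, 9.25 and 10.61 TPM in KD (-0.04, limma adjusted p = 0.788). Within each library INSIG1 was 2.103, 2.36 and 2.81 times as abundant as INSIG2 in shCtrl and 6.79, 7.61 and 6.77 times in KD.

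SREBF2, which encodes SREBP-2, the main driver of the sterol genes (ENSG00000198911, chr22:41833079-41907308), was listed at 84.10, 82.08 and 83.37 TPM in shCtrl and at 120.80, 111.33 and 120.10 TPM in KD. The groups did not overlap, and the log2 fold change was 0.74 ± 0.0352 (SE, limma adjusted p = 6.68e-06). SREBF1, which encodes the SREBP-1 isoforms that favour fatty acid genes (chr17:17810399-17837002), stood at 110.77, 108.83 and 108.37 TPM in shCtrl and at 117.26, 117.04 and 140.37 TPM in KD. KD replicate 3 was well above the other 2 KD libraries. The log2 fold change of SREBF1 was 0.43 after scaling (limma adjusted p = 0.00148) and 0.19 as deposited (limma adjusted p = 0.061). SREBF1 was 1.317, 1.326 and 1.3 times as abundant as SREBF2 in the shCtrl libraries and 0.971, 1.05 and 1.17 times in KD. STARD4, a carrier of sterol between membranes, was listed at 24.87, 25.17 and 28.00 TPM in shCtrl and at 26.75, 26.39 and 29.28 TPM in KD. Its groups overlapped as deposited (0.08, limma adjusted p = 0.355), and it rose by 0.32 after scaling (limma adjusted p = 0.00634).

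The 8 genes of the fatty acid arm changed in both directions. After scaling 5 rose, SCD fell, and ELOVL6 and FADS2 did not pass the test, with a median log2 fold change of 0.20. The arm's shares were 62.5% higher and 12.5% lower, against 28.5% and 25.9% of all genes. As deposited, FASN and ACSS2 were called higher, SCD, ACLY and FADS2 were called lower, and the median was -0.04. Those are 25% higher and 37.5% lower, near the 16.3% and 40.3% of all genes, whose median was -0.195. The summed level of the arm was 770 ± 11.0 TPM in shCtrl and 808 ± 9.03 TPM in KD (SD, n = 3 each), a ratio of 1.05 as deposited and 1.25 after scaling, the lowest ratio of the 4 arms on both scales.

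FASN, the multienzyme that builds palmitate (ENSG00000169710, chr17:82078333-82098332), was listed at 205.98, 197.42 and 199.43 TPM in shCtrl and at 365.37, 359.23 and 361.62 TPM in KD. The log2 fold change was 1.09 ± 0.0259 (SE, limma adjusted p = 6.36e-07), and FASN became the most abundant of the 30 in KD. SCD, the desaturase that turns saturated fatty acids into monounsaturated ones (ENSG00000099194, chr10:100347124-100364834), went the other way. The libraries held 330.60, 323.97 and 323.82 TPM in shCtrl, where SCD was the most abundant member, and 204.83, 197.09 and 204.80 TPM in KD. It fell by 0.44 on the log2 scale after scaling (SE 0.0232, limma adjusted p = 9.78e-06) and by 0.69 as deposited, with no overlap between the groups. The ratio of FASN to SCD within a library was 0.623, 0.609 and 0.616 in shCtrl and 1.78, 1.82 and 1.77 in KD.

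Of the enzymes that supply acetyl-CoA and malonyl-CoA, ACSS2 rose on both scales, and ACLY and ACACA only after scaling. ACLY, which splits citrate into cytosolic acetyl-CoA, was listed at 96.50, 94.52 and 94.78 TPM in shCtrl and at 89.94, 88.06 and 90.27 TPM in KD. As deposited all KD libraries lay below shCtrl (log2 fold change -0.09, limma adjusted p = 0.0319), and after scaling ACLY rose by 0.15 (limma adjusted p = 0.00263), so its direction was set by the scale. ACACA, which carboxylates acetyl-CoA to malonyl-CoA, was listed at 60.13, 56.35 and 52.02 TPM and then at 59.45, 59.36 and 57.73 TPM, with overlapping groups as deposited (0.07, limma adjusted p = 0.33) and a rise of 0.31 after scaling (limma adjusted p = 0.00225). ACSS2, which makes acetyl-CoA from acetate, went from 31.09, 33.62 and 35.53 TPM to 39.87, 41.30 and 39.09 TPM (0.50 after scaling, limma adjusted p = 0.000567, and 0.26 as deposited).

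Of the elongation and desaturation steps beside SCD, FADS1 rose after scaling only, and ELOVL6 and FADS2 did not pass the test on that scale. ELOVL6, which extends palmitate, varied more between libraries than any other member relative to its level. It was listed at 19.35, 25.29 and 17.91 TPM in shCtrl and at 16.16, 18.51 and 25.46 TPM in KD, and its log2 fold change of 0.17 had a 95% interval from -0.26 to 0.60 (limma adjusted p = 0.456). FADS1, the delta-5 desaturase of polyunsaturated fatty acids, was listed at 29.16, 29.73 and 28.31 TPM and then at 30.05, 27.33 and 28.82 TPM. It had overlapping groups as deposited (-0.02, limma adjusted p = 0.791) and rose by 0.22 after scaling (limma adjusted p = 0.00494). FADS2, the delta-6 desaturase, was listed at 8.79, 7.87 and 7.87 TPM in shCtrl and at 6.04, 6.46 and 6.20 TPM in KD. As deposited its groups did not overlap (-0.34, limma adjusted p = 0.00692), and after scaling the value was -0.13 with a 95% interval from -0.30 to 0.05 (limma adjusted p = 0.198). Within a library FADS1 was 3.32, 3.78 and 3.597 times as abundant as FADS2 in shCtrl and 4.98, 4.23 and 4.65 times in KD.

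**Figure D3:**
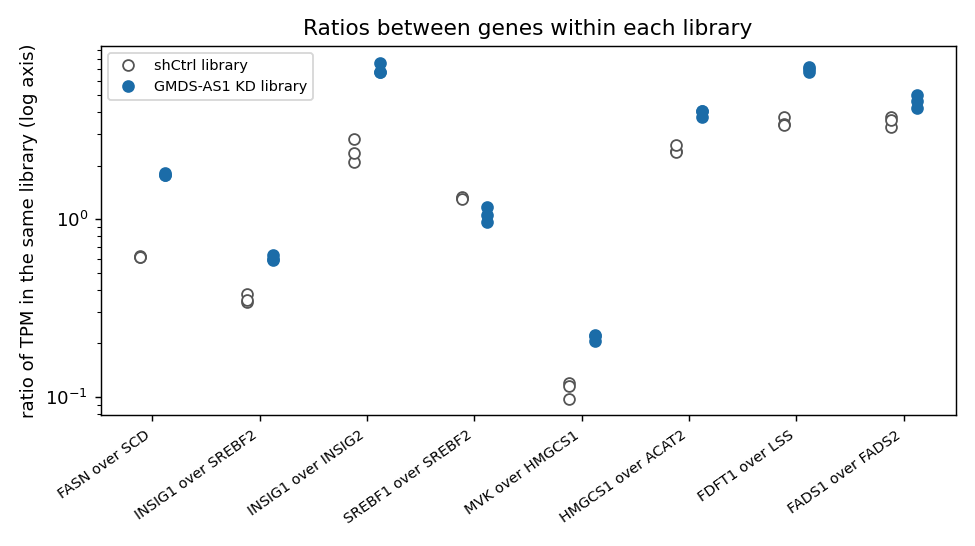
Ratio of TPM between 2 genes of the same library on a log axis, for 8 pairs, with open circles for the 3 shCtrl libraries and filled circles for the 3 GMDS-AS1 KD libraries. These ratios do not depend on the scaling. The groups do not overlap for any pair drawn, but the pairs were chosen after their values were seen and no test was made on them. FASN over SCD went from 0.616 to 1.79 on average and INSIG1 over INSIG2 from 2.43 to 7.06.

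Ratios within libraries also showed unequal change inside the mevalonate arm and among the regulators. MVK stood at 0.0979, 0.119 and 0.115 of the level of HMGCS1 in shCtrl and at 0.222, 0.221 and 0.205 in KD. HMGCS1 was 2.42, 2.38 and 2.63 times as abundant as ACAT2 in shCtrl and 4.05, 4.08 and 3.77 times in KD. INSIG1 stood at 0.342, 0.379 and 0.350 of SREBF2 in shCtrl and at 0.588, 0.632 and 0.598 in KD. In each of these pairs the numerator gained on the denominator in all 3 KD libraries.

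In the order of levels, SCD led the shCtrl libraries at a mean of 326 TPM, followed by FDPS at 204 and FASN at 201 TPM, whose libraries overlapped, and FDFT1 at 133 TPM. In KD the order was FASN at 362, FDPS at 245, FDFT1 at 231 and SCD at 202 TPM, with no overlap between these neighbours. The lowest member was MVK in shCtrl, at 7.95 TPM beside FADS2 at 8.18 TPM with overlapping libraries, and FADS2 in KD at 6.23 TPM, while MVK stood at rank 24. All members together summed to 1996 ± 16.1 TPM in shCtrl and 2462 ± 24.5 TPM in KD (SD, n = 3 each), a ratio of 1.23 as deposited and 1.46 after scaling.

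**Figure D4:**
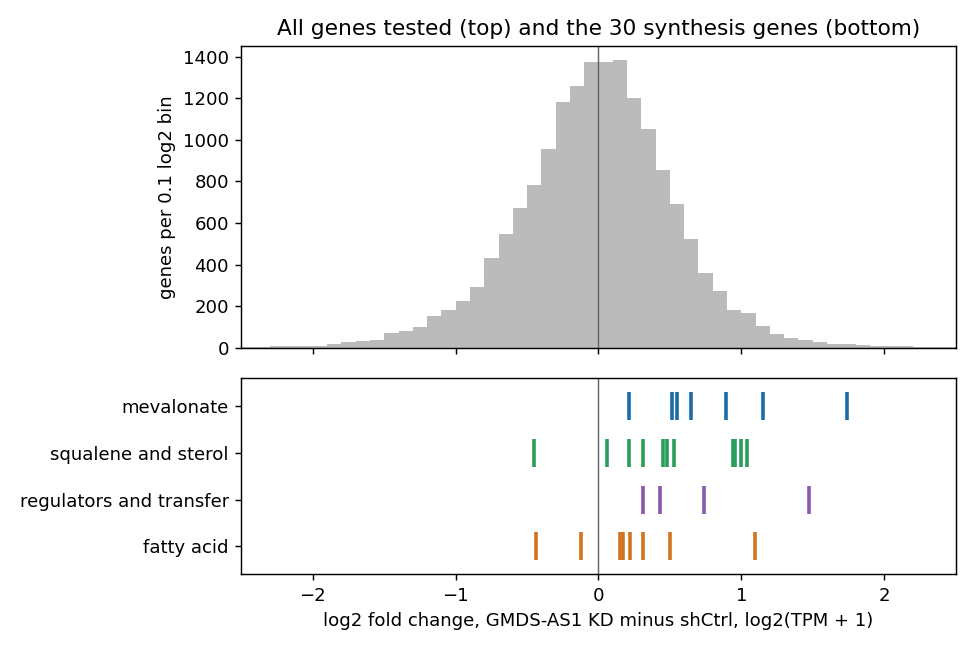
Log2 fold change after trimmed mean scaling of all 16901 genes tested (histogram, bins of 0.1, with the few genes beyond the axis not drawn) and of the 30 members by arm (ticks). The members' median of 0.49 lies to the right of the median of all genes, and the 3 ticks below 0 are TM7SF2, SCD and FADS2.

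Some members share exons with genes on the opposite strand, and no source used here states whether the libraries kept strand. ACAT2 shares 397 exonic bases (9.23% of its exons) with TCP1, a chaperonin subunit listed at a mean of 272 TPM in shCtrl and 383 TPM in KD, far above ACAT2 itself. MVK shares 306 bases (4.72%) with MMAB, which stood at 27.9 and 28.4 TPM. FADS1 and FADS2 share 490 bases, IDI1 shares 643 with IDI2-AS1 and FDPS shares 693 with RUSC1-AS1, whose means did not exceed 2.22 and 8.24 TPM. ACLY shares 156 bases with an antisense gene at 30.8 and 21.2 TPM, and SREBF1 shares 556 with RAI1 at 12.0 and 11.4 TPM. The part of these overlaps in the values was not tested.

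The genes around the 30 were read as 6 lists, of which 75 of 80 genes were tested. After scaling 27 rose (36.0%) and 23 fell (30.7%), with a median log2 fold change of 0.02, and as deposited 16 were called higher and 40 lower. These shares lay closer to those of all genes than the members' did. Of all genes tested, 28.5% rose and 25.9% fell after scaling, and as deposited 16.3% were called higher and 40.3% lower. The counts of each list below are to be read beside these shares. ABCA1, VLDLR, ELOVL2, ELOVL4 and THRSP were too low to be tested.

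Isoprenoid branches and the sterol steps outside the 30 had 8 of 13 genes that rose and 2 that fell, COQ2 and NUS1, with a median log2 fold change of 0.34 (as deposited 4 higher, 2 lower). ACAT1, the mitochondrial thiolase, went from 84.82, 90.60 and 87.76 TPM to 149.06, 146.28 and 145.46 TPM (0.98, limma adjusted p = 1.91e-06). The cytosolic ACAT2 rose by only 0.22 after scaling and did not rise as deposited. ACAT1, COQ2, NUS1 and the genes named in the following lists were chosen after their values were seen. The exceptions are SLC25A1, named by a rule on its own fold change, and NFYA, SCAP and INSIG2. That rule and these names were set with earlier results of these data known.

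The SREBP processing list, with the genes that move, cleave and degrade the proteins of the pathway, held more falls than rises. Of 11 genes only MBTPS1, the first Golgi protease, rose (0.48, limma adjusted p = 8.3e-05). In the other direction 6 genes fell (54.5%, where 25.9% of all genes fell). Among them were MBTPS2, the second protease, ERLIN1, ERLIN2, SPRING1 (limma adjusted p = 0.0386) and MARCHF6 (limma adjusted p = 0.0402). The list's median was -0.19 (as deposited 1 higher and 9 lower, median -0.43). SCAP, the escort protein, was listed at 29.41, 27.90 and 29.07 TPM and then at 25.79, 23.25 and 25.53 TPM. Its log2 fold change was 0.03 after scaling (limma adjusted p = 0.618) and -0.21 as deposited (limma adjusted p = 0.0159).

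The list drawn under transcription partners of SREBP held 6 transcription factors, of which MLXIPL encodes a separate factor and not a partner of SREBP. Of these, NFYC, SP1 and MLXIPL rose and NFYA fell, with a median of 0.20 (as deposited 1 higher, 2 lower). NFYA, the subunit of NF-Y that contacts the CCAAT letters shown above, was listed at 21.70, 14.46 and 19.08 TPM in shCtrl and at 6.56, 9.05 and 7.82 TPM in KD. The groups did not overlap, and the log2 fold change was -0.91 ± 0.168 (SE, limma adjusted p = 0.00362). NFYC, another subunit, was listed at 40.65, 40.93 and 38.81 TPM and then at 49.54, 46.86 and 47.67 TPM (0.50, limma adjusted p = 4.42e-05).

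Among 12 genes tested of cholesterol uptake, transport and efflux, 4 rose and 2 fell, with a median of 0.03 (as deposited 2 higher, 6 lower). Fatty acid elongation, activation and supply had 7 of 21 that rose and 9 that fell, with a median of -0.06 (as deposited 5 higher, 13 lower). The greatest rise in the 6 lists was that of SLC25A1, the carrier that exports citrate from mitochondria to ACLY. The libraries held 34.91, 34.75 and 32.59 TPM in shCtrl and 67.23, 64.56 and 67.74 TPM in KD (1.19 ± 0.0359 SE, limma adjusted p = 1.25e-06), the only gene of the lists past 2-fold after scaling. DGAT1, which makes triglycerides, fell by 0.66 on the log2 scale (limma adjusted p = 3.38e-05), and IDH1, a cytosolic source of NADPH, fell by 0.64 (limma adjusted p = 6.23e-05). ME1, another such source in the list, rose by 0.56 (limma adjusted p = 7.96e-05). Fatty acid oxidation had 4 of 12 that rose and 3 that fell, with a median of 0.02 (as deposited 3 higher, 8 lower). CPT1A, the entry step for long-chain fatty acids into mitochondria, was listed at 32.61, 30.76 and 31.56 TPM in shCtrl and at 14.26, 13.79 and 14.99 TPM in KD (-0.85, limma adjusted p = 1.31e-05). Among the oxidation genes that rose were HADHA (0.71, limma adjusted p = 6.77e-06) and ETFB (0.70, limma adjusted p = 2.68e-06).

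**Figure D5:**
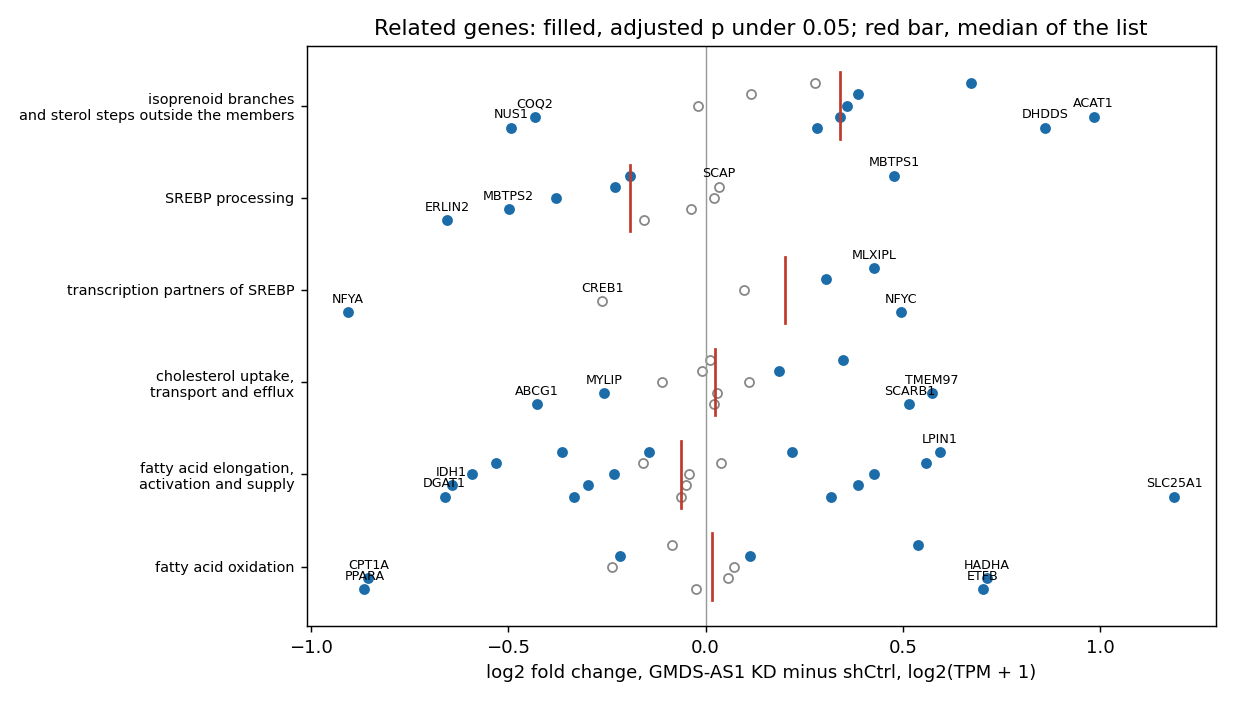
Log2 fold change after trimmed mean scaling of genes tested in the 6 related lists, 1 point a gene, filled where the adjusted p was under 0.05, with a red bar at the median of each whole list. Of the 75 genes, 2 whose values are not reported here are not drawn. Points are shifted vertically within a list for legibility only, and the labelled genes are the outermost drawn in each list. The medians run from -0.19 in SREBP processing to 0.34 in the isoprenoid and sterol steps, and SLC25A1 lies farthest to the right at 1.19.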

How the data were processed

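Poly-A selected RNA of 3 shCtrl and 3 GMDS-AS1 KD libraries was sequenced in pairs of reads. The authors deposited 1 TPM value per Ensembl gene and library, computed with Cufflinks and RSEM by their methods, and the submitters' processing notes name Trimmomatic 0.27, TopHat2 2.1.1 and GRCh38.p13. TPM keeps no read total (the columns sum to 991058 to 992992), so the depth is unknown and no counting error was computed. A value was read for 60662 genes, and another 2 on broken lines were left out. Groups and replicate numbers came from the sample titles.

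A gene was tested if 3 or more libraries reached 0.5 TPM. Scaling factors were taken from TPM by the trimmed mean of M-values, with 30% of log ratios and 5% of mean values trimmed from each end. The model for log2(TPM + 1) used limma 3.58.1 (R 4.3.3) and its trend of variance on level, and p-values were adjusted over all 16901 genes. The fit was tested on simulated data. Motifs were searched with Python 3.11.15, and 58394 identifiers were found in GENCODE v29.

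The members, the related lists, the tests and the naming rule were chosen with earlier results of these data known. The rule named all 30 members, with the value in each library, and from the lists the genes changed at least 2-fold, NFYA, SCAP and INSIG2. Values of other genes of the pathway are not reported here. The alternatives were other scalings or none, another pseudocount or filter, no trend, a replicate block, and each library left out.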

Additional observations from a re-analysis of the deposited data

How the results depend on the processing

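Each result was computed again under 14 other settings. With TPM as deposited, 5 members in place of 2 were called lower and 2 in place of 5 were at least 2-fold higher. Of all 16901 genes tested, 225 in place of 495 were called at least 2-fold higher. In the related lists 16 genes in place of 27 were called higher and 40 in place of 23 lower. The members' median log2 fold change was 0.25 in place of 0.49. The log2 fold change changed sign on that scale for ACAT2 (-0.023), LSS (-0.18), SC5D (-0.02), ACLY (-0.09), ELOVL6 (-0.064) and FADS1 (-0.017), because no factor then offsets the lower median of all genes in KD. Under upper-quartile scaling the median was 0.40 and LSS stood at -0.027, and ACAT2, SC5D and ACLY were no longer called. CYP51A1, SREBF1, STARD4 and ACACA were also not called as deposited, and FADS2 was. Median ratio scaling, a pseudocount of 0.1, a minimum of 1 TPM or none, and no variance trend changed no call of a member. Leaving out each library in turn moved the members' median between 0.44 and 0.50, and ACAT2 alone lost its call. GMDS-AS1 lost its call without a filter (-0.41, adjusted p = 0.132), where more genes were tested and the variance trend was fitted again. Its call was also lost in each of the 5 fits that left out a library other than shCtrl replicate 3 (-0.44 to -0.30). Without shCtrl replicate 3 its call was kept (-0.52, adjusted p = 0.0289).

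The replicate numbers did not pair the libraries: deviations from the group means correlated between same-numbered libraries at 0.0290, -0.0376 and 0.0142. With a replicate block GMDS-AS1 stood at -0.41 (adjusted p = 0.0518), and no call of a member changed. Of the related lists 19 genes in place of 23 were then called lower. SPRING1 (adjusted p = 0.0543) and MARCHF6 (adjusted p = 0.0534) were among those that lost the call, and 27 were again called higher.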
